A study of Mus musculus with 4 samples.

Results

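The genes described here are 9 regulators of mRNA in male germ cells: Dazl, Boll, Ddx4, Ddx25, Ybx2, Rbm46, Meioc, Celf1 and Elavl1. They were chosen by name as genes of mRNA storage, stability, decay or translation control, with earlier results of these data known. They are 9 of the 53700 genes in the deposited table, each was found by its symbol, and all 9 passed the filter on low counts. The libraries are polyadenylated RNA from primary spermatocytes, which were sorted by flow cytometry from Hoechst-stained testis cells of 8-wk-old C57BL/6 mice. The wild type group holds replicates 2 and 3. The circSry KO group holds replicates 1 and 2, from mice in which CRISPR-Cas9 removed the splice acceptor in front of the coding part of Sry, so that the circular transcript of Sry is not made. The deletion is carried by every cell of the mouse, so it is not limited to spermatocytes. The labels do not say whether each library came from 1 mouse, and the p-values measure the spread between these libraries.

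Germ cells transcribe many mRNAs long before they translate them, because transcription is shut down for meiotic sex chromosomes and again when spermatid chromatin is compacted. RNA-binding proteins hold such mRNAs in storage particles, protect or shorten their poly(A) tails, and release them to ribosomes at set stages. DAZL and BOLL belong to the DAZ family, DDX4 and DDX25 are DEAD-box helicases of germ cell granules, YBX2 is the germ cell Y-box protein that packages stored mRNA, RBM46 and MEIOC work with the helicase YTHDC2 at the entry into and progress through meiosis, and CELF1 and ELAVL1 bind GU-rich and AU-rich elements in 3′ UTRs.

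The expected counts of the 4 libraries summed to between 8045148 and 8839461. The 3 counts that a count of 0 still allows equal 0.339 to 0.373 CPM (counts scaled to a common library size) for counting error alone. Sry itself had 0 counts in all 4 libraries, so it gives no check of the genotype, and a circular RNA without a poly(A) tail would not be captured. Replicates were distinct libraries, since sampling noise would give a chi-square near 1 for each gene and it was 11.2 between the wild type libraries and 35.8 between the circSry KO libraries. Markers of spermatocytes were detected in both groups, but so were those of other cells, and purity was not tested. Summed TPM of pachytene and diplotene markers was 8552 and 9574 in wild type and 7185 and 8160 in circSry KO. Elongating spermatid markers summed to 8310 and 7897 in wild type and to 51692 and 41802 in circSry KO. Markers of other cell types and stages moved between the groups at the same time and are given below beside the results. In bulk RNA, fewer cells of a type and less RNA per cell cannot be told apart.

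Of the 9 genes, 5 were called lower in circSry KO, namely Rbm46, Celf1, Meioc, Boll and Dazl, and 0 were called higher. A call needed an FDR, the Benjamini-Hochberg adjusted p over 17766 genes of the quasi-likelihood test of edgeR, under 0.05 together with a change of 1 or more log2 units. Over all genes tested, 15% were called lower and 20% higher. The median log2 fold change of the 9 genes was −1.17, against 0.07 for all genes tested. Ybx2, Ddx4, Ddx25 and Elavl1 were not called. At an unadjusted p under 0.05 in edgeR, 7 of the 9 were lower, the other two being Ybx2 and Elavl1, and 0 were higher, where over all genes tested 21.8% were lower and 26% higher. TPM, a level per transcript length scaled to a fixed sum in each library, was lower in both circSry KO libraries than in both wild type libraries for 7 of the 9, and over all genes tested this was so for 38.8%. Without wild type replicate 2 the number called lower was 3, beside 5.01% of all genes tested, and Dazl and Boll were the ones lost.

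**Figure D1:**
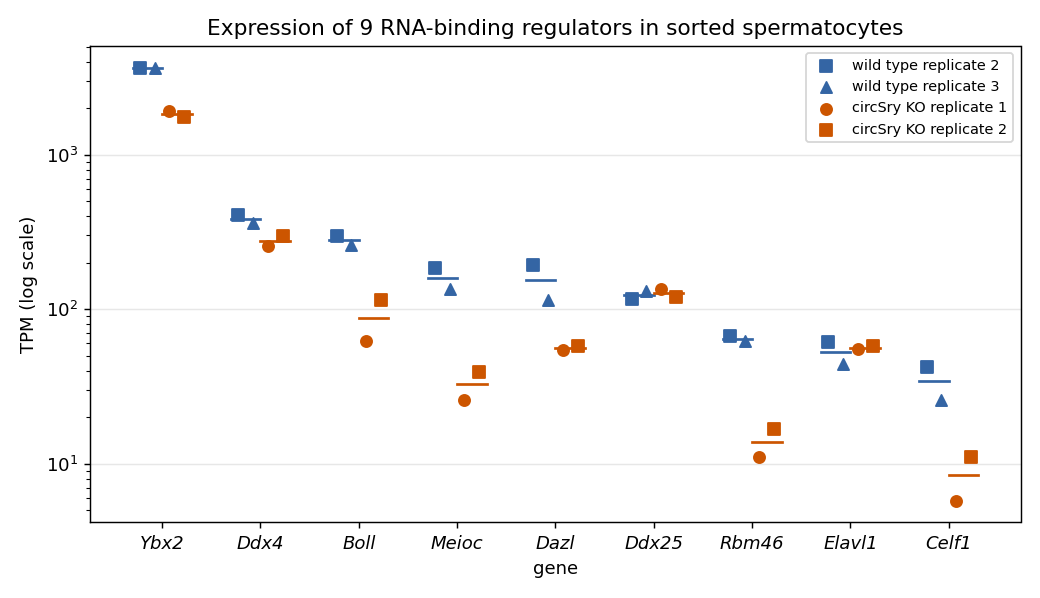
TPM of the 9 genes (log axis) in each library, with wild type in blue, circSry KO in orange, a marker shape for each replicate number and a line at each group mean. The groups overlap for Ddx25 and Elavl1 and are apart for the other 7 genes.

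Ybx2 stood above the other genes in level in every library. Among genes with a TPM of at least 1, it ranked 10 in wild type replicate 2 and 8 in replicate 3, but 43 in circSry KO replicate 1 and 35 in replicate 2. Ybx2 made up 71.0% to 76.3% of the summed TPM of the 9 genes. That sum was 5002 and 4794 in wild type against 2526 and 2459 in circSry KO, and without Ybx2 it was 1365 and 1135 against 604 and 713. In wild type the order of mean TPM was Ybx2, Ddx4, Boll, Meioc, Dazl, Ddx25, Rbm46, Elavl1 and Celf1, and the neighbours Meioc and Dazl, and Dazl and Ddx25, had overlapping libraries. In circSry KO the order was Ybx2, Ddx4, Ddx25, Boll, Dazl, Elavl1, Meioc, Rbm46 and Celf1, with overlap between Dazl and Elavl1 and between Rbm46 and Celf1.

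Dazl (chr17:50586366-50600664, minus strand, GRCm39 as for all genes below) encodes the DAZ-family protein that binds 3′ UTRs and recruits poly(A)-binding protein to raise translation, and germ cells need it to enter meiosis. Its TPM was 194 and 115 in wild type (replicates 2 and 3, in this order throughout), and in circSry KO (replicate 1, then replicate 2) it was 54.6 and 57.9. The circSry KO libraries lay close together and below both wild type libraries, which differed from each other more. The log2 fold change on counts was −1.17 (SE 0.33, 95% interval −1.88 to −0.47, FDR 0.0127, edgeR). Without wild type replicate 2, the library with the higher Dazl level, the log2 fold change was −0.86 and the FDR 0.302. With upper-quartile scaling it was −0.96 (FDR 0.0304), inside the fold threshold.

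Boll (chr1:55283803-55402950, minus strand) encodes the ancestral member of the DAZ family, and in mouse its loss stops spermatids. Boll had a TPM of 296 and 260 in wild type and of 62.3 and 114 in circSry KO. Both circSry KO libraries were below both wild type libraries, with replicate 1 the lowest. The log2 fold change was −1.47 (SE 0.31, 95% interval −2.14 to −0.80, FDR 0.0025, edgeR). Leaving out wild type replicate 2 kept its size (−1.45) with an FDR of 0.0530. The ratio of Boll to Dazl TPM was 1.53 and 2.26 in wild type and 1.14 and 1.96 in circSry KO, and these ratios overlapped. The span of Boll overlaps those of Mars2 and Gm8292 on the other strand, and whether exons are shared was not examined. The library kit does not mark the strand, so reads from any shared exons could not be told apart. The expected counts of all 9 genes were whole numbers in every library.

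Ddx4 (chr13:112734867-112789009, minus strand) encodes the mouse VASA homolog, a helicase of the chromatoid body and intermitochondrial cement that takes part in piRNA production. The TPM of Ddx4 was 406 and 363 in wild type, and 255 and 296 in circSry KO. The groups did not overlap, but its nearest libraries were closer in ratio than those of any gene called. On counts the log2 fold change was −0.29 (SE 0.33, 95% interval −0.99 to 0.42, FDR 0.518, edgeR), so a fall of up to 1 log2 unit lies in its interval. Ddx25 (chr9:35447943-35469858, minus strand) encodes GRTH, the testicular RNA helicase that exports mRNAs from the nucleus and that spermatids need to complete their development. Ddx25 TPM was 115 and 130 in wild type and 134 and 120 in circSry KO, with overlapping groups, and its log2 fold change of 0.30 (SE 0.35, 95% interval −0.44 to 1.03, FDR 0.525, edgeR) was the one positive value among the 9 in this fit. The ratio of Ddx4 to Ddx25 TPM was 3.51 and 2.78 in wild type and 1.90 and 2.46 in circSry KO.

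Ybx2 (chr11:69826474-69832432, plus strand) encodes MSY2, an abundant protein of germ cell mRNPs that stabilises and represses stored mRNA. Ybx2 TPM was 3636 and 3658 in wild type and 1922 and 1745 in circSry KO. The libraries agreed within each group and the groups were far apart relative to that spread. The log2 fold change on counts was −0.84 (SE 0.37, 95% interval −1.61 to −0.06), and with an FDR of 0.0821 (edgeR) it was not called. It was −0.92 with DESeq2 (FDR 0.00609) and −0.63 with upper-quartile scaling (FDR 0.177, edgeR), both inside the fold threshold. Its relative Ybx1, the Y-box gene of most tissues, had a log2 fold change of −0.49 (FDR 0.291), and the ratio of Ybx2 to Ybx1 TPM was 1.15 and 1.11 in wild type and 1.43 and 0.936 in circSry KO, which overlapped. The span of Ybx2 overlaps those of Eif5a, Gm72763 and Slc2a4 on the other strand, and reads from any shared exons could not be told apart.

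Rbm46 (chr3:82743830-82783834, minus strand) encodes a germ cell RNA-binding protein that in mouse acts with MEIOC and YTHDC2 on mRNAs of the mitotic programme. Its TPM was 67.1 and 61.7 in wild type, and 11.04 and 16.72 in circSry KO. The groups did not overlap, and the libraries within each were close beside the gap between them. On counts the log2 fold change of Rbm46 was −1.96 (SE 0.31, 95% interval −2.63 to −1.29, FDR 0.000421, edgeR), and 4.02% of all genes tested had a lower one. The span of Rbm46 overlaps that of Rbm46os on the other strand, and reads from any shared exons could not be told apart.

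Meioc (chr11:102554542-102573063, plus strand) encodes the partner of YTHDC2 that keeps germ cells in meiotic prophase. TPM of Meioc was 183 and 136 in wild type and 25.8 and 39.3 in circSry KO. As for Rbm46, the groups were apart and circSry KO replicate 1 was the lowest library. The log2 fold change was −1.64 (SE 0.32, 95% interval −2.32 to −0.96, FDR 0.00139, edgeR). Ythdc2, the helicase of the same complex, had a TPM of 25.97 and 17.46 in wild type, and 3.20 and 4.85 in circSry KO. Its log2 fold change was −2.56 (SE 0.35, FDR 0.000159, edgeR). The ratio of Rbm46 to Meioc TPM was 0.366 and 0.455 in wild type and 0.427 and 0.425 in circSry KO, and these overlapped. That of Meioc to Ythdc2 was 7.06 and 7.77 against 8.07 and 8.11, slightly higher in both circSry KO libraries. Both ratios are per transcript length, and the effective length of Meioc was higher in both circSry KO libraries, as given below. Meioc overlaps Gm73842 on the other strand.

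Celf1 (chr2:90770584-90849842, plus strand) encodes a protein that binds GU-rich elements, promotes decay of such mRNAs and regulates splicing, and mice without it have defective spermatogenesis. Celf1 had a TPM of 42.4 and 25.6 in wild type and of 5.76 and 11.1 in circSry KO. The spread within each group was wide, and both circSry KO libraries were still below both wild type libraries. Its log2 fold change was −1.73 (SE 0.34, 95% interval −2.46 to −0.99, FDR 0.00164, edgeR). Celf1 was called lower in all 13 alternative fits, with values from −2.15 to −1.41, and so were Rbm46 and Meioc.

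Elavl1 (chr8:4332576-4375489, minus strand) encodes HuR, which binds AU-rich elements and stabilises mRNAs, and is needed in mouse germ cells for meiosis and spermatid development. Its counts were lower in circSry KO, whereas its length-scaled levels were not. In CPM, Elavl1 was at 146 and 111 in wild type and at 84.5 and 62.4 in circSry KO, so both circSry KO libraries were lower. In TPM it was at 61.0 and 44.4 in wild type and at 55.0 and 57.6 in circSry KO, and the groups overlapped. The log2 fold change on counts was −0.81 (SE 0.32, 95% interval −1.48 to −0.13, FDR 0.0557, edgeR) and was not called, whereas with each library's effective gene length as an offset it was 0.30 (SE 0.32, 95% interval −0.39 to 0.98, FDR 0.499, edgeR). Without circSry KO replicate 1 the count estimate was called lower, at −1.06 (FDR 0.00240). The ratio of Celf1 to Elavl1 TPM was 0.696 and 0.576 in wild type and 0.105 and 0.192 in circSry KO. The span of Elavl1 overlaps that of Ccl25 on the other strand, and reads from any shared exons could not be told apart.

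**Figure D2:**
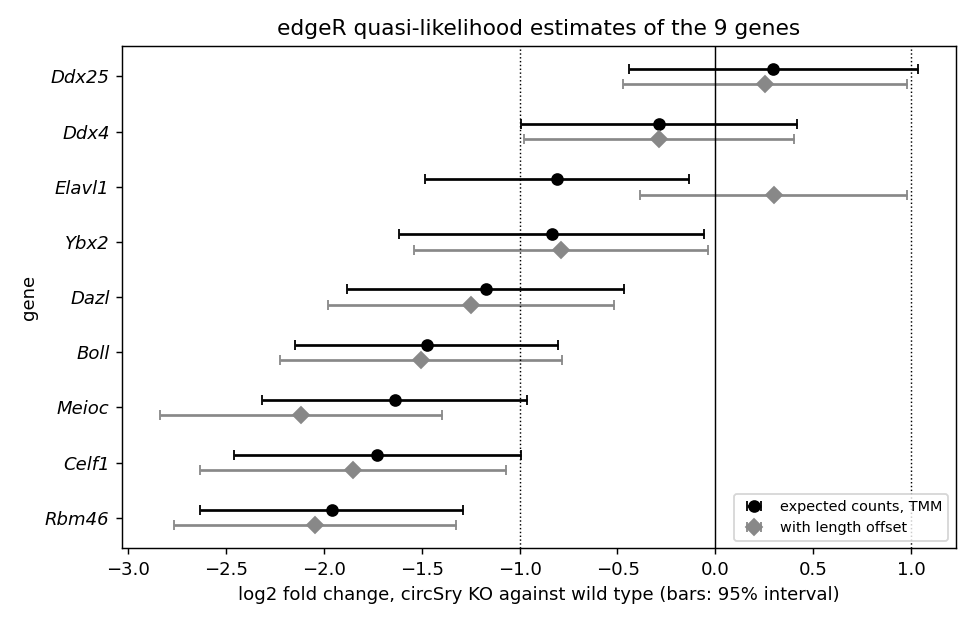
Log2 fold change of circSry KO against wild type for the 9 genes, with 95% intervals, from edgeR on expected counts (circles) and with an effective length offset (diamonds). Dotted lines mark the fold threshold, and Elavl1 moves from −0.81 to 0.30 between the fits.

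The offset used the effective length of each gene, which RSEM computes as the mean length of the gene's transcripts weighted by their estimated shares and which follows from the expected count and the FPKM. It also depends on the fragment lengths of a library, so a small change of it need not be a change of the estimated transcript mix. Ddx25, for example, was at 6688 and 6675 bases in wild type and at 6698 and 6710 bases in circSry KO. The effective length of Elavl1 was 3787 and 3590 bases in wild type and 1775 and 1549 bases in circSry KO, a log2 ratio of −1.15. Of the 9765 genes with at least 50 counts and an FPKM of at least 1 in every library, 0.287% had a lower ratio, and the 5th and 95th percentiles were −0.46 and 0.27. Meioc moved the other way, from 2826 and 2957 bases to 4227 and 3654 bases, a log2 ratio of 0.45 that 1.57% of genes exceeded. For Meioc the fall is therefore larger per length, with a log2 fold change of −2.12 (SE 0.33, FDR 0.000896, edgeR) under the offset. The other 7 genes had log2 ratios between −0.06 and 0.06. The effective length groups of 4 of the 9 genes overlapped, 4 were higher in both circSry KO libraries and 1 was lower, where over all genes 36.1% were higher and 19.5% lower in both. The median effective length of a library was 2054 and 2042 bases in wild type and 1944 and 1985 bases in circSry KO.

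**Figure D3:**
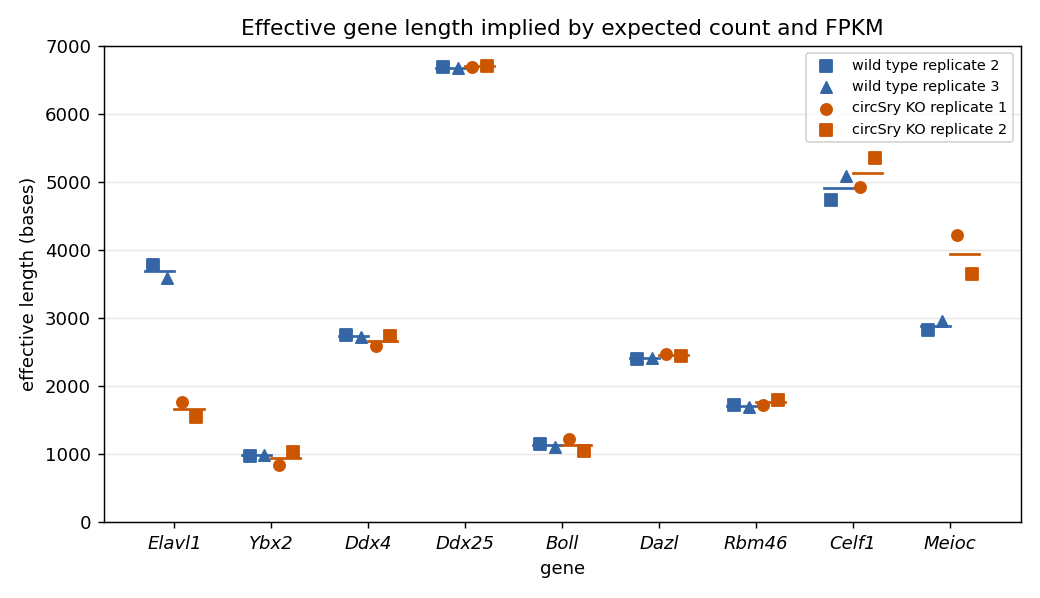
Effective gene length in bases, from expected count and FPKM, of the 9 genes in each library, with lines at the group means. Elavl1 falls from about 3787 and 3590 bases in wild type to 1775 and 1549 bases in circSry KO, and Meioc rises.

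In GENCODE M39 Elavl1 has 19 coding transcripts of 1225 to 9055 bases, the canonical one being 8625 bases long. The shortest coding ones are of 1225 and 2693 bases. Further transcripts of Elavl1, annotated as retained intron or nonsense-mediated decay, have between 613 and 4808 bases. Meioc has coding transcripts of 1726 and 4626 bases. Only gene-level values were analysed here and no source used here names the annotation release behind the deposited counts, so the transcripts behind the shift are not known. The canonical transcript has a 3′ UTR of 7024 bases. That of the coding transcript of 2693 bases is 1623 bases long and ends before the canonical one does. The circSry KO effective lengths of Elavl1, 1775 and 1549 bases, were below 2693, so the transcript of that length alone does not give them. The coding transcripts of 1225 and 2693 bases were not themselves searched for elements. Matches in the canonical form were only placed against the end of the 2693-base one. The elements shown here lie in the canonical form and not in the coding one of 2693 bases. The first pair are the matches to the seed of miR-138-5p, the miRNA that the study tested as a partner of circSry, in capitals (the motif CACCAGC on the mRNA strand). The last is an AU-rich heptamer (TATTTAT, in capitals).
miR-138-5p, mature sequence with bases 2 to 8 in capitals: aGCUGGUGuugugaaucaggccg
Elavl1, chr8:4337312-4337340, minus strand: gggggaaatgtCACCAGCttctggaggtc
Elavl1, chr8:4335724-4335752, minus strand: tacttgtgagtCACCAGCtgccaagtatt
Elavl1, chr8:4332860-4332888, minus strand: aagacaacaccTATTTATcgttgcctggt

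Of the 2 seed matches and 9 AU-rich heptamers in the canonical 3′ UTR of Elavl1, 0 and 0 lie before the end of the 2693-base transcript. Of the 3 GU-rich heptamers (TGTTTGT) in the canonical one, 2 do. The heptamers partly overlap one another, with 8 of the 9 AU-rich ones in a single run of repeats. In the 3′ UTRs of 14370 tested coding genes, 1 canonical transcript each, 14.9% held CACCAGC, 30.4% held TATTTAT and 29.8% held TGTTTGT, and the median length was 1233 bases. A longer UTR has more places for a match. The mature sequence is from RefSeq (GRCm38.p6), and the sites are from GRCm39.

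Among the other members, the canonical transcripts of 7 had an annotated 3′ UTR, and that of Boll had none. Ybx2 held 1 seed match in its 3′ UTR of 414 bases, and Dazl, Ddx4, Ddx25, Rbm46, Meioc and Celf1 held 0. Of the 5 genes called lower, the 4 with a canonical 3′ UTR thus held 0 seed matches, which says only that these letters are not in the UTR searched. Boll has 11 coding transcripts of 882 to 5657 bases, and only the canonical one, of 882 bases, was considered. AU-rich heptamers lay in Dazl (2), Meioc (1) and Celf1 (1), and GU-rich heptamers in Celf1 (3) and Ddx25 (2). A Pumilio element (TGTANATA, in 26.3% of 3′ UTRs) lay in Ddx25 alone among these genes. The site in Ybx2, the most abundant of the 9 mRNAs, and the first sites in Dazl, Meioc and Celf1 read as follows with the motif in capitals (GRCm39).
Ybx2 seed match, chr11:69832149-69832177, plus strand: gagggccaaagCACCAGCctttggctttt
Dazl AU-rich, chr17:50587815-50587843, minus strand: attgtactttaTATTTATtatttgtctaa
Meioc AU-rich, chr11:102572107-102572135, plus strand: aaatactaccaTATTTATaaatttgaaat
Celf1 GU-rich, chr2:90844003-90844031, plus strand: aaagtttgctgTGTTTGTaaccagtttgt

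Promoter windows from 250 bases before to 50 bases after the start site (RefSeq, GRCm38.p6) matched all 9 genes, with 11 windows in all. They were searched on both strands for CNCCTCAG, the element read by STRA8 and MEIOSIN at meiotic entry, for TCCCGC, the E2F6 element of genes kept silent outside the germline, and for the E-box CACGTG. CNCCTCAG was in 4 of the 11 windows (Dazl, Ybx2, Rbm46 and Elavl1), against 7.94% of 32851 windows of all genes. TCCCGC was in 8 of the 11, against 20%, and CACGTG in 4, against 7.15% (Boll, Ddx4, Ddx25 and Rbm46). Rbm46 was the only 1 of the 9 genes with all 3 motifs. A match is a string of letters and shows no binding. A match each of Rbm46, Boll and Dazl is shown because these genes were called lower, with the motif in capitals.
Rbm46 CACGTG, chr3:82876500-82876528, minus strand: tggggccactcCACGTGaggcacgctagg
Boll CACGTG, chr1:55363745-55363773, minus strand: agcagagtttgCACGTGggaacttgtctt
Dazl CNCCTCAG, chr17:50293588-50293616, minus strand: cgcgcagcccaCGCCTCAGtgactcggcg

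Genes of the same pathways were counted in 6 further lists that hold 85 genes, of which 81 were tested. Of these, 22 were called lower, 9 higher and 50 were not called, with a median log2 fold change of −0.46. Without wild type replicate 2 the numbers were 10 lower and 2 higher, beside 5.01% and 6.48% of all genes tested. Without wild type replicate 3 the number higher was 2, beside 10.1%. The shares were 27.2% lower and 11.1% higher, beside 15% and 20% of all genes tested. These lists were chosen with earlier results of these data known, which limits what the shares can show.

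Among meiotic entry genes and the partners of DAZ proteins and YTHDC2, 4 of 11 were lower and 1 was higher. Meiosin, which works with STRA8 to switch on meiotic genes, had a TPM of 44.7 and 27.4 in wild type and of 3.90 and 6.94 in circSry KO (log2 fold change −2.62, SE 0.37, FDR 0.000211, edgeR). Its partner Stra8 was at 47.8 and 37.5 against 39.4 and 31.4 TPM, with overlapping groups and a log2 fold change of −0.11 (FDR 0.821). Dazap1, a DAZ-associated protein, fell by 1.82 on the log2 scale, and Cpeb1, which binds cytoplasmic polyadenylation elements, fell by 1.25. Nanos3, which germ cell precursors need to survive, was the gene called higher, at TPM of 1.20 and 1.22 against 5.28 and 5.03. These rest on few counts, 3 and 3 in wild type and 19 and 14 in circSry KO.

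Of 15 genes of mRNP storage and P-bodies, 6 were lower and 1 was higher, with a median log2 fold change of −0.84. The decapping scaffold Edc4 (−1.92), Lsm14b (−1.75), the helicase Ddx6 (−1.54) and the decapping factor Dcp1a (−1.30) fell. Ddx3x rose by 1.13, and its TPM of 15.4 in circSry KO replicate 2 stood above 6.35 in replicate 1, which overlapped wild type. Of 6 Y-box and cold-shock genes, Lin28b was lower (−1.57), and Lin28a (1.46) and Carhsp1 (1.15) were higher.

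Of 18 genes that bind AU-rich or GU-rich elements, 6 were lower and 3 higher. Khsrp, which promotes decay of AU-rich mRNAs, fell by 2.15, Qk by 1.41 and Elavl3 by 3.16 on the log2 scale, where Elavl3 had a TPM of 4.73 or less in every library. Zfp36, an immediate early gene whose product also promotes decay, rose by 2.03, from a TPM of 11.1 and 8.19 to 40.0 and 23.3. Of 24 genes of poly(A) tail and translation control, 4 were lower and 2 higher, Paip1 (−2.17), G3bp1 (−1.98), Fxr2 (−1.30) and Cpeb3 (1.93) having the lowest adjusted p. The abundant poly(A)-binding protein gene Pabpc1 had a TPM of 2279 and 2364 against 1924 and 2151, and its log2 fold change of −0.12 was not called (FDR 0.824). Eif4e1b had 0 counts in all libraries. Of 7 relatives of Rbm46 and germline RBM genes, 1 was lower, the splicing regulator Rbm5 (−1.92).

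**Figure D4:**
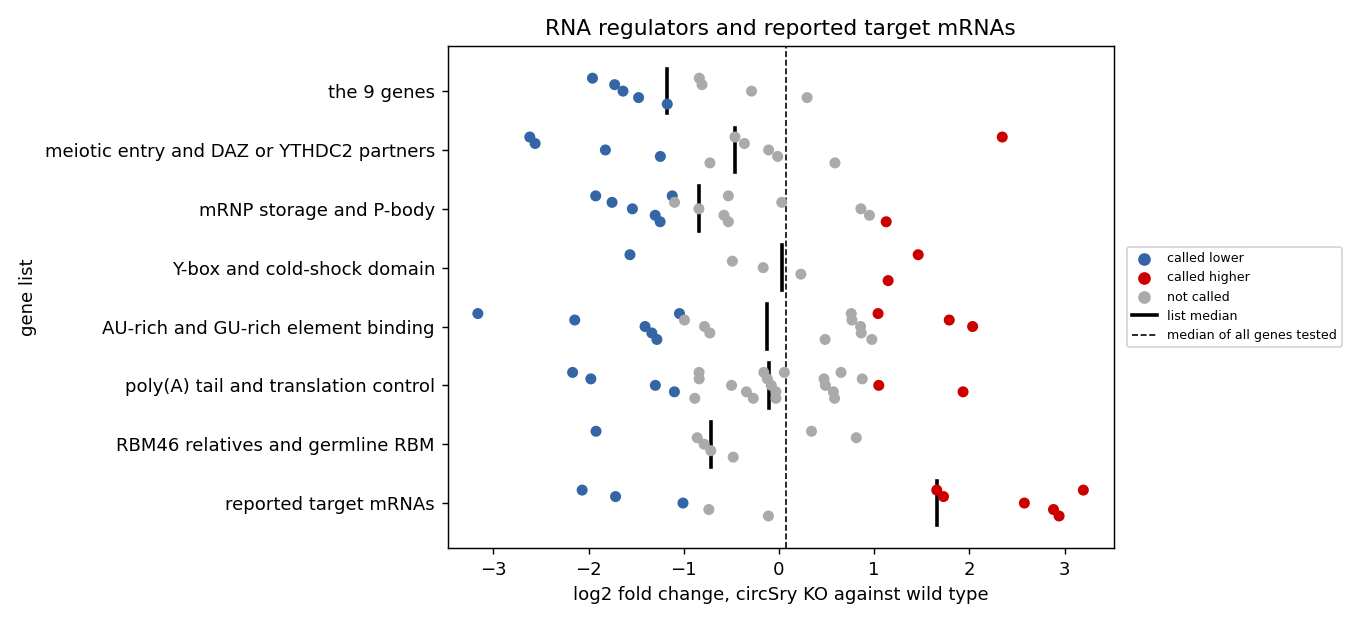
Log2 fold change of each tested gene in the 9 genes, the 6 related lists and the list of reported target mRNAs, coloured by call, with a bar at each list's median and a dashed line at the median of all genes tested (0.07). The 9 genes lie between −1.96 and 0.30, and of the 11 target mRNAs 3 were called lower and 6 higher.

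A last list holds 11 mRNAs that have been reported in mouse as targets of these proteins, such as Sycp3 for DAZL, Prm1 for YBX2 and Ccna2 for MEIOC, and 3 were lower, 6 higher and 2 not called. The lower ones were the synaptonemal complex genes Sycp1 (−2.07, SE 0.34) and Sycp3 (−1.72, SE 0.39), and Tex19.1 (−1.01, SE 0.36), a germ cell gene that acts on retrotransposons. The higher ones were the protamine genes Prm1 (3.20, SE 0.42) and Prm2 (2.58, SE 0.39), the transition protein genes Tnp1 (2.88, SE 0.37) and Tnp2 (2.94, SE 0.39), the glycolytic gene Pgk2 (1.66, SE 0.36) and Ace (1.73, SE 0.34), which encodes an angiotensin-converting enzyme with a testis form. Prm1 TPM was 2125 and 1831 in wild type and 16553 and 10898 in circSry KO. Hspa2, a chaperone of spermatocytes (−0.74, FDR 0.120), and the cyclin gene Ccna2 (−0.11, FDR 0.810) were not called. The list mixes stages. Sycp1 and Sycp3 are also markers of early prophase, and Pgk2 and Hspa2 of pachytene and diplotene spermatocytes. Prm1, Prm2, Tnp1 and Tnp2 are also markers of elongating spermatids.

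Several marker lists of germ cell stages and other testis cells also differed between the groups, some lower and some higher in circSry KO. Of 10 markers of leptotene and zygotene spermatocytes, the first stages of meiotic prophase, 8 were called lower and 0 higher, with a median log2 fold change of −2.06. Their summed TPM was 1262 and 886 in wild type against 296 and 241 in circSry KO. Of 8 markers of pachytene and diplotene spermatocytes 2 were lower and 1 higher, with a summed TPM of 8552 and 9574 against 7185 and 8160. Ldhc, not called, made the largest part of that sum, at 4921 and 5812 against 4581 and 4863. The lower ones were Piwil1, at 644 and 468 against 17.2 and 31.1 TPM, and Mybl1 (log2 fold change −1.07). The higher one was Pgk2 (1.66). All 10 markers of elongating spermatids were higher, at 8310 and 7897 against 51692 and 41802 summed TPM, and so were 7 of 8 of round spermatids, at 711 and 947 against 2082 and 2289. Spermatogonia markers were called lower for 1 and higher for 3 of 8, at 163 and 125 against 234 and 174. Leydig cell markers were lower for 8 of 8, at 1901 and 1607 against 681 and 622. Leukocyte markers were higher for 11 of 11, at 27.0 and 23.0 against 488 and 363. Sertoli cell markers were higher for 9 of 9, at 92.1 and 68.2 against 204 and 444, and peritubular and stromal markers for 10 of 10, at 111 and 78.6 against 447 and 491. Among stress genes (early response and heat shock) 6 of 8 were higher, as was 1 of 4 erythroid markers and 0 of 6 endothelial markers. No marker was at 0 in every library. The part of these shifts in the change of each of the 9 genes was not tested.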

How the data were processed

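RNA-seq of sorted primary spermatocytes was analysed for 4 libraries, 2 wild type and 2 circSry KO, grouped by their labels. The authors aligned reads with STAR 2.7.0f and quantified genes with RSEM 1.3.2 on GRCm39, according to the submitters' processing notes, which also list mm9. The annotation release and the role of mm9 are stated in no source used here. The library kit (Illumina TruSeq) does not mark the strand, and the labels give both 1 and 2 µg as the RNA input. The deposited expected counts are the authors' RSEM estimates per gene and library before normalization. The deposited TPM and FPKM values are the authors' levels per transcript length from the same run. A deposited table of the authors' comparison (fold changes and p-values from edgeR 3.28.1) was not used. A second sheet of 4 TPM columns held the same values as the first.

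Expected counts were rounded, and the test used edgeR 4.0.16 under R 4.3.3 (filterByExpr, TMM, quasi-likelihood test, Benjamini-Hochberg adjustment, no covariate). The common dispersion was 0.0685. An exact two-sided permutation of 4 libraries reaches p = 0.33 at the lowest, so calls depend on edgeR's shared estimate of the spread. Alternatives were edgeR's likelihood ratio test, DESeq2 1.42.0, limma 3.58.1 on log2(TPM + 1) and log2(TPM + 0.1), other scalings, other filters, a length offset, and leaving out each library. The edgeR fit was run on simulated counts with known changes. Effective length was the expected count divided by FPKM and library total. The 9 genes and all gene lists were chosen with earlier results of these data known. All 9 genes were named, with up to 4 called genes of each related list by adjusted p and all reported target mRNAs. Stra8, Nanos3, Ddx3x, Ybx1, Pabpc1, Eif4e1b, Piwil1, Mybl1 and Ldhc were named after their values were seen. GENCODE M39 (GRCm39) gave positions, transcripts and 3′ UTRs. Promoters and the mature miRNA are from RefSeq (GRCm38.p6).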

Additional observations from a re-analysis of the deposited data

How the results depend on the processing

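Of 117 alternative values of the 9 log2 fold changes, 109 kept their direction and side of the threshold. Rbm46, Meioc and Celf1 were called lower in all 13 alternatives, and Ddx4, Ddx25 and Ybx2 in 0. Dazl was −0.96 with upper-quartile scaling, and from −1.501 to −0.86 over the fits without 1 library. Boll ranged from −1.65 to −1.33 over those fits, and was −1.45 with an FDR of 0.0530 (edgeR) without wild type replicate 2. Elavl1 was positive at 0.11 with limma on log2(TPM + 1), at 0.11 with log2(TPM + 0.1), at 0.11 with a mean TPM of at least 1, and at 0.30 with the length offset. All of these fits take the changed effective length out by construction, the limma ones because TPM is a level per length. The fit with a mean TPM of at least 1 gives the same estimate as that on log2(TPM + 1). Leaving out 1 library, Elavl1 ranged from −1.06 to −0.61. The number of the 9 genes called lower was 3 to 6 over the fits that left out 1 library.

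Related genes called higher were 5 with DESeq2, 4 with log2(TPM + 1), 5 with log2(TPM + 0.1), 4 with a mean TPM of at least 1 and 15 with upper-quartile scaling. Genes called higher over all genes tested were 2219, 2117 and 1939 in the limma fits, in the same order. The cause was not tested. Upper-quartile scaling shifted the median over all tested genes from 0.07 to 0.28 log2 units, and limma on log2(TPM + 1) moved it to −0.13. Of the called genes 57.1% were higher in the quasi-likelihood fit, 69.2% with upper-quartile scaling and 43.9% with log2(TPM + 1). The median of the 9 genes was −0.96 and −1.39 in those fits.

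Over the fits that left out 1 library, related genes called lower were 10 to 28 and called higher 2 to 12, and all genes called lower were 952 to 3368 and called higher 1232 to 4127. The lowest counts were without wild type replicate 2, where 952 genes were lower and 1232 higher. No paired analysis was possible because the groups share fewer than 2 replicate numbers. With 2 libraries a group, the intervals of Ddx4 and Ddx25 reach about 1 log2 unit, and a smaller change would not have been called. Gene-level values do not show which transcripts changed.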
